A study of Mus musculus with 12 samples.

Results

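The natriuretic peptide family was followed here in mouse ventricle through 9 genes, taken by symbol from a table of 54949 features. They are the peptide genes Nppa, Nppb and Nppc, the receptor genes Npr1, Npr2 and Npr3, the peptide-processing proteases Corin and Furin, and the peptide-degrading enzyme Mme. Each symbol matched 1 row. Poly-A RNA of ventricles, with the atria taken off, had been sequenced in bulk in 12 libraries from male wild-type C57BL/6N mice, which were 8 weeks of age when a 5-week regimen began. HFpEF mice (heart failure with preserved ejection fraction), given a high-fat diet and 0.5 g/L of the nitric oxide synthase inhibitor L-NAME to drink, were set against mice on normal diet and water.

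The groups were taken from the library names, 6 named HF and 6 named con, and are called HF-named and con-named. The labels contradict each other for every library. The 6 HF-named libraries carry titles and treatment labels of the control mice (normal diet and water), and the 6 con-named libraries carry those of the mice on the high-fat diet and L-NAME. Which group received the diet and the inhibitor therefore cannot be told from the labels, and all differences are given as HF-named over con-named without a direction of treatment. The design text speaks of 5 bulk samples per group where the labels hold 6. No label states that libraries are from separate mice, and the spread that p-values measure may be technical in part.

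Natriuretic peptides are hormones of the heart that lower blood volume and pressure. Nppa encodes the precursor of atrial natriuretic peptide (ANP), made mostly in atria and, after birth, at low level in ventricle, and Nppb encodes the precursor of B-type natriuretic peptide (BNP); stretched or failing ventricle is known for raised levels of both transcripts. Corin, a membrane protease of cardiomyocytes, cuts pro-ANP, and furin cuts pro-BNP and the precursor of C-type natriuretic peptide (CNP, from Nppc). ANP and BNP act on the receptor encoded by Npr1 and CNP on that encoded by Npr2, both guanylyl cyclases that make cyclic GMP. The receptor encoded by Npr3 has no cyclase domain and takes peptides up for degradation, and neprilysin, encoded by Mme, cuts them outside the cell.

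Nppa and Nppb lie side by side on the plus strand of chromosome 4, Nppb at chr4:147985788-147987205 and Nppa at chr4:148000722-148002079 (GENCODE on GRCm38/mm10), with 13516 bases between them. Their promoters are printed because the pair shares a locus and the cardiac factors known to bind there are among the genes described further on. Each line holds the 250 bases before the RefSeq start (GRCm38.p6, plus strand, 5′ to 3′), chr4:148000472-148000721 for Nppa and chr4:147985650-147985899 for Nppb, with matches to the searched motifs in capitals.
Nppa: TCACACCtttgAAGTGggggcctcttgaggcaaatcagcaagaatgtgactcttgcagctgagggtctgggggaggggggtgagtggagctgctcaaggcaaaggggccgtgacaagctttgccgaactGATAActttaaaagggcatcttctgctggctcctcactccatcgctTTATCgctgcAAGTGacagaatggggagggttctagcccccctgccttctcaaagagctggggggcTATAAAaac
Nppb: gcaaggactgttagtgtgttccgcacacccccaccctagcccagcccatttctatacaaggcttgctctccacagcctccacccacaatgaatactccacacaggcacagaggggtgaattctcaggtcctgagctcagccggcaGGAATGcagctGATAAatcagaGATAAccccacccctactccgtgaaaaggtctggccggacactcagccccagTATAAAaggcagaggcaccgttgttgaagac
Motifs were searched on both strands as plain letters, GATAA for zinc-finger factors such as Gata4, AAGTG for homeodomain factors such as Nkx2-5, and TCACACC for T-box factors. CATTCC stood for the element bound by TEAD factors and TATAAA for the promoter's own box, and the CArG box of serum response factor was searched by name. No matches to different motifs overlapped in these windows. Both promoters held 2 GATAA matches, at -121 and -75 in Nppa and at -94 and -83 in Nppb (first base, counted from the start). Each also held 1 TATAAA match, at -9 in Nppa and at -31 in Nppb. All these positions depend on the RefSeq start used. Nppa alone of the pair held AAGTG (2 matches) and TCACACC (1 match), and Nppb alone held CATTCC (1 match). Among 32851 promoters of the same length, 22.6% held GATAA, 40.7% AAGTG, 3.33% TCACACC, 12.6% CATTCC, 12.4% TATAAA and 1.47% a CArG box, which no promoter of a member held (RefSeq gave a promoter for 9 of 9 members). The Nppb start in GENCODE lies 5′ of the RefSeq start, so part of its printed window falls inside the GENCODE gene.

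Total counts ranged from 14443186 to 22048689 per library, which puts 3 counts at 0.142 to 0.217 CPM (counts scaled to library size). HF-1, HF-2 and HF-3 had the smallest totals of the HF-named libraries (14443186 to 15150318, against 18105305 to 22048689 in HF-4 to HF-6). Mitochondrial transcripts took 23.9% to 27.2% of counts in HF-named libraries and 21% to 24% in con-named ones. The first principal component, 22.9% of the variance, had all HF-named libraries on its positive side and all con-named ones on its negative side. All pairs of libraries within a group differed by more than sampling noise (chi-square per degree of freedom 4.28 to 16.2 over 30 pairs). Of all features, 15114 had enough counts for the edgeR quasi-likelihood test.

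Npr3 was lower and Corin and Mme were higher in HF-named ventricles, past an adjusted p of 0.05 (edgeR, Benjamini-Hochberg over all 15114 tested genes). The other 5 tested members, Nppa, Nppb, Npr1, Npr2 and Furin, did not pass, and Nppc had too few counts to be tested. These 3 calls among 9 members stand against 13.3% of all tested genes called in either direction, 8.28% called higher and 5.05% called lower; whether the members stand apart from other genes was not tested. Npr3 changed more in size than 97.9% of tested genes, Mme than 97.7% and Corin than 86.1%, as a description. In the authors' deposited table, which sets HF over control, the same 3 members have adjusted p-values under 0.05: Npr3 0.00174, Mme 0.00351 and Corin 0.0283.

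**Figure D1:**
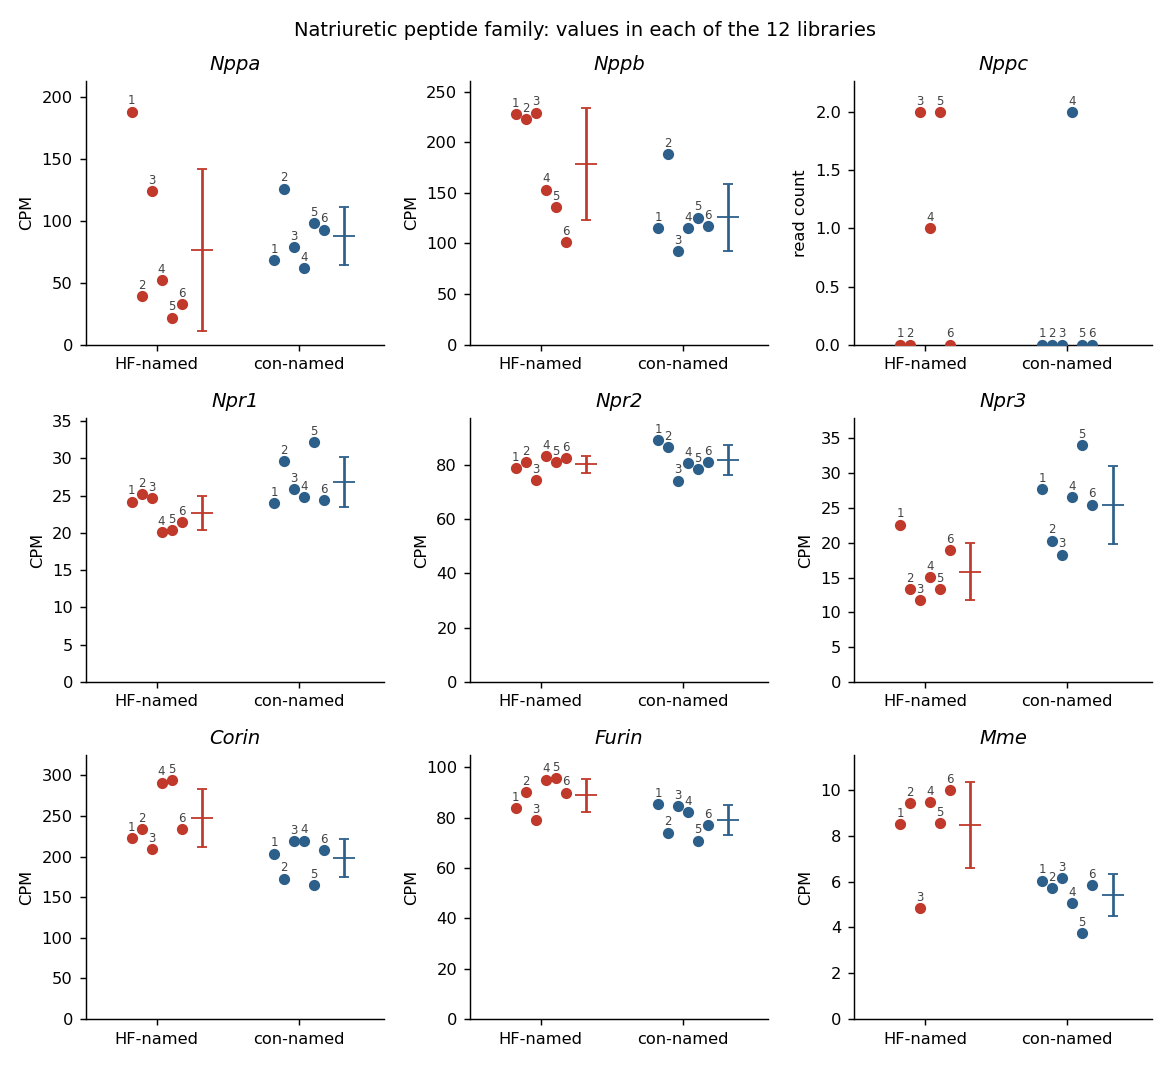
CPM (linear axes from 0; read counts for Nppc) of the 9 members in each library, HF-named left and con-named right, points marked with the replicate number, the group mean as a line and the SD as a bar (not for Nppc). Nppa spreads from 21.8 to 188.1 CPM in HF-named libraries, and Mme and Corin each have 5 HF-named libraries above all con-named ones.

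Nppb and Nppa were the 2 most abundant members. On the deposited FPKM scale, which divides by transcript length and so allows levels of different genes to be set side by side, the means over 12 libraries were 195 for Nppb, 96.4 for Nppa and 40.9 for Corin. Below them came Npr2 (17.3 FPKM), Furin (9.11), Npr1 (5.2), Npr3 (2.22), Mme (0.594) and Nppc (0.0331). Nppb was above Nppa in 12 of 12 libraries although their ranges overlapped. Nppa was above Corin in 4 of 6 HF-named and 6 of 6 con-named libraries, so the order of this pair did not hold in every library. Npr1 was above Npr3 in 12 of 12 libraries with ranges that just overlapped (lowest Npr1 3.84, highest Npr3 3.94), and no other neighbours in the order overlapped. Counts per exon kilobase from the annotation gave the same order.

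**Figure D2:**
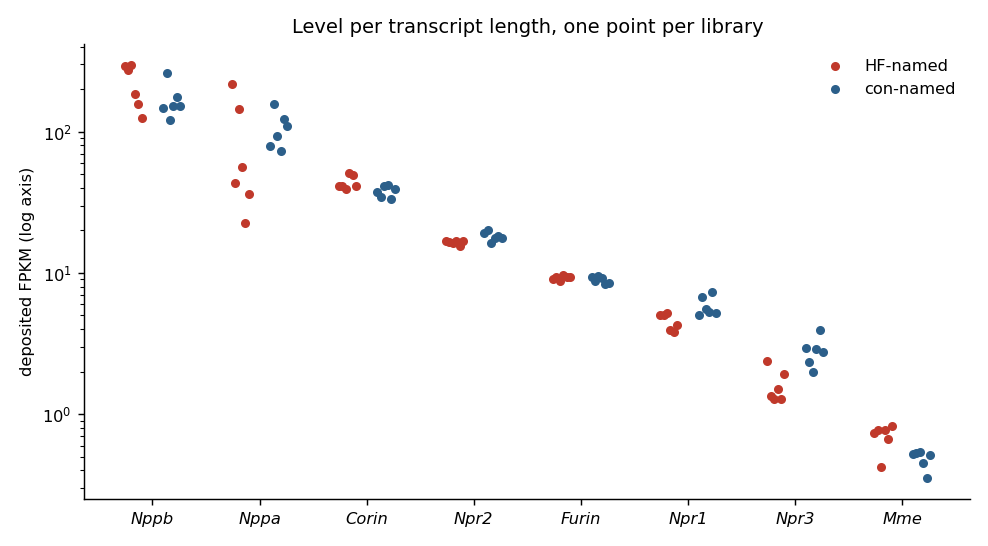
Deposited FPKM (log axis) of 8 members in each library (Nppc, at 0 in most libraries, is left out), in order of their mean, HF-named and con-named libraries in separate colours. Nppb, at a mean of 195 FPKM, lies above Nppa in every library, and the ranges of Nppa and Corin overlap.

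Among the ligands, Nppa was the most variable member that was tested and its group means did not differ beyond the spread. Nppa ranged from 21.8 to 188.1 CPM in HF-named libraries (median 45.5) and from 62.0 to 125.9 CPM in con-named libraries (median 85.9). HF-2, HF-4, HF-5 and HF-6 lay below every con-named library (21.8 to 52.0 CPM), HF-1 lay above every one of them at 188.1 CPM, and HF-3 (123.9 CPM) lay inside their range. The highest HF-named value was 8.63 times the lowest, against 2.03 times in con-named libraries. The means were 76.3 ± 65.7 CPM in HF-named and 87.7 ± 23.3 CPM in con-named libraries (SD, n = 6 each), and the log2 fold change was -0.21 (SE 0.40, 95% interval -1.06 to 0.64, adjusted p 0.776). The interval runs from a fold of 0.48 to one of 1.56, so neither a fall nor a rise inside it was detectable with this spread. Leaving out 1 library moved the log2 fold change from -0.71 (without HF-1) to -0.02 (without HF-5), and limma-voom gave -0.59. It was -0.40 without HF-3, -0.08 without HF-2 or con-2, -0.12 without HF-4 and -0.05 without HF-6, and none of these fits passed the threshold (lowest adjusted p 0.174).

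HF-1, the library with the most Nppa, also had the most of 3 of the 7 atrial markers measured, and Bmp10 was near 0 in all libraries. The other 3, Kcnj3, Dkk3 and Mybphl, were not highest in HF-1. Sln (sarcolipin) was 1.06 CPM in HF-1, against 0 to 0.142 CPM in the other HF-named and 0 to 0.0484 CPM in the con-named libraries, and it was at 0 in 8 of 12 libraries. Myl7 (atrial regulatory light chain) was 1.79 CPM in HF-1, 0 to 0.759 CPM in the other HF-named libraries and 0 to 0.241 CPM in con-named ones. Myl4 (atrial essential light chain) was 4.19 CPM in HF-1, 0.869 to 1.61 CPM in the other HF-named libraries and 0.934 to 2.53 CPM in con-named ones. HF-3, the HF-named library with the next highest Nppa, had 0.0665 CPM of Myl7 and no Sln. The 7 atrial markers together gave 47.6 to 73.9 CPM in HF-named and 48.8 to 67.0 CPM in con-named libraries, mostly from Kcnj3 (61.2 and 53.3 CPM on average), and did not pass (exact permutation p 0.162, adjusted over 10 marker lists 0.203). Dkk3, the next most abundant, was 1.66 CPM in HF-1, 0.908 to 1.73 CPM in the other HF-named libraries and 1.65 to 4.68 CPM in con-named ones (log2 fold change -0.72, adjusted p 0.0728, and 0.0404 under scaling by library totals). Mybphl was 0.532 CPM in HF-1, 0 to 0.237 CPM in the other HF-named libraries and 0.121 to 1.003 CPM in con-named ones. Bmp10 was at 0 in 7 libraries. The part of atrial RNA in the Nppa values was not tested. The antisense gene Gm13054 shares 532 bases, 61.5%, of the Nppa exons on the opposite strand; it had 0 to 15 counts in HF-named libraries, the 15 in HF-1, and 1 to 5 in con-named ones, and reads of the overlap cannot be assigned without a strand setting.

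Nppb was higher on average in HF-named libraries without passing the threshold. It ranged from 101.4 to 229.4 CPM in HF-named libraries (median 188.2) and from 92.4 to 188.4 CPM in con-named libraries (median 116.3). HF-1, HF-2 and HF-3 (223.2 to 229.4 CPM) lay above every con-named library, and HF-4, HF-5 and HF-6 (101.4 to 153.3 CPM) lay inside their range. These 3 high libraries are also those with the smallest totals among the HF-named libraries. In contrast, con-3, with a total as small (14647162), had the lowest Nppb of all libraries (92.4 CPM). The part of library totals in the result was not tested. The means were 178.5 ± 55.6 CPM in HF-named and 125.7 ± 32.7 CPM in con-named libraries (SD, n = 6 each), and the log2 fold change was 0.50 (SE 0.19, 95% interval 0.10 to 0.91, adjusted p 0.0932), a fold of 1.42. The value in con-2 (188.4 CPM) stood apart from the other 5 con-named libraries (92.4 to 125.6 CPM). Nppb passed without con-2 (log2 fold change 0.65, adjusted p 0.0289) and without HF-6 (0.62, 0.0259). It did not pass in the other 10 fits without 1 library (adjusted p up to 0.189) or in any of the 7 other settings. Under scaling by library totals the log2 fold change was 0.39 (adjusted p 0.192).

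The balance of Nppb to Nppa was wider spread in HF-named libraries. The ratio of Nppb to Nppa in the same library was 1.21 to 6.23 in HF-named libraries (median 3.01) and 1.17 to 1.86 in con-named libraries (median 1.39), with 4 HF-named libraries above all con-named ones. HF-2 held both high Nppb (223.2 CPM) and low Nppa (39.1 CPM). On log2 CPM within the 6 HF-named libraries Pearson's r was 0.706 (exact permutation p 0.151, adjusted over 3 relations 0.26) and Spearman's rho 0.829 (exact permutation p 0.0583). Within the 6 con-named libraries r was 0.731 (exact permutation p 0.0958, adjusted 0.288) and rho 0.829 (exact permutation p 0.0583). Without the 2 libraries farthest from the median of Nppa, r was 0.344 in HF-named and 0.428 in con-named libraries. The narrower range of Nppa without them tends to lower r in itself, so whether the relation rests on those libraries cannot be told. Over all 12 libraries r was 0.364 (permutation p 0.245) and rho 0.399 (permutation p 0.199), and r without the 2 farthest libraries was 0.218.

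**Figure D3:**
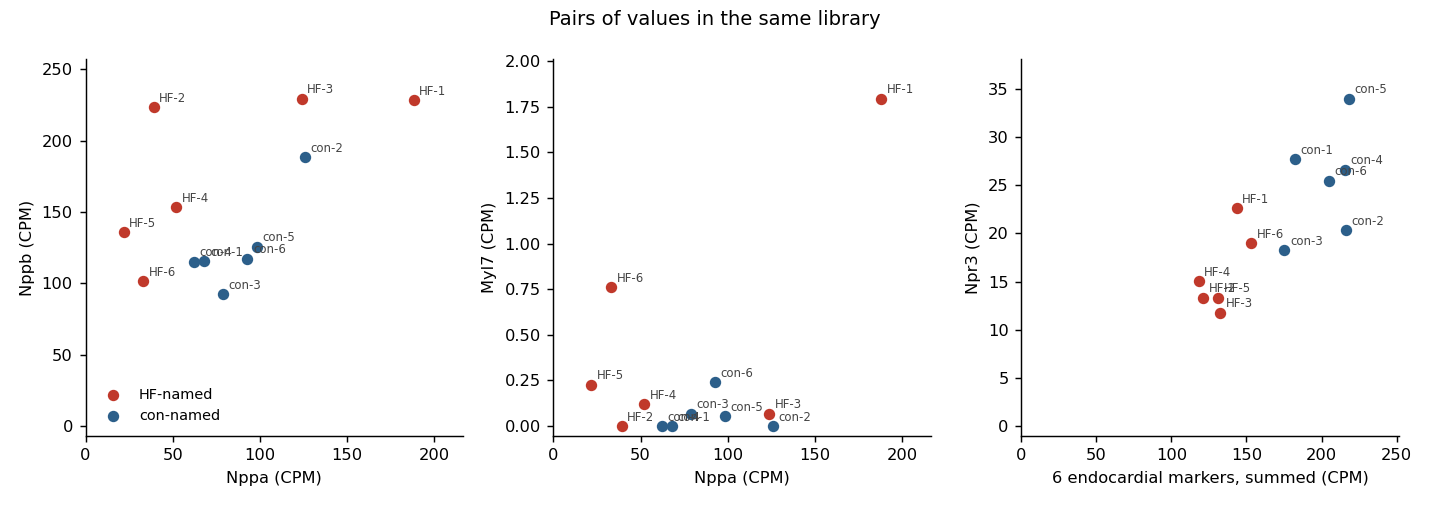
Values of the same library in pairs (CPM, linear axes), HF-named and con-named in separate colours with library names: Nppb against Nppa, Myl7 against Nppa, and Npr3 against the sum of 6 endocardial markers. HF-1 is highest in Nppa (188.1 CPM) and in Myl7 (1.79 CPM), HF-2 pairs low Nppa with high Nppb, and the endocardial sums of the groups do not overlap.

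Nppc, the CNP gene at chr1:86666291-86670571 on the minus strand, was close to absent from these libraries. It had 5 counts in all over the 6 HF-named libraries (0, 0, 2, 1, 2 and 0) and 2 counts over the 6 con-named ones, both in con-4. Each library lies under the 3-count floor, so no fold is given and a difference was not detectable at this depth.

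Of the receptors, only Npr3, the clearance receptor at chr15:11839896-11907287 on the minus strand, passed the threshold over all libraries with this fit. Npr3 ranged from 11.8 to 22.6 CPM in HF-named libraries (median 14.2) and from 18.3 to 34.0 CPM in con-named libraries (median 26.0). HF-2 to HF-5 (11.8 to 15.0 CPM) lay below every con-named library, and HF-1 (22.6 CPM) and HF-6 (19.0 CPM) lay inside their range. Npr3 averaged 15.8 ± 4.13 CPM in HF-named and 25.4 ± 5.61 CPM in con-named libraries (SD, n = 6 each), a fold of 0.624 (log2 fold change -0.68, SE 0.16, 95% interval -1.02 to -0.34, adjusted p 0.0119). The call was kept in all 12 fits that left out 1 library (log2 fold change -0.80 to -0.59).

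Npr3 is known in mouse heart as a gene of the endocardium, the lining of the chambers, and most endocardial markers were also lower. Of 6 such markers 4 fell: Vwf (von Willebrand factor, log2 fold change -1.04), Tmem108 (-1.10), Nrg1 (the growth factor neuregulin 1, -1.80) and Bmp6 (a bone morphogenetic protein, -0.45). Of all tested genes, 5.05% were called lower. Cgnl1 (-0.28, adjusted p 0.0654) and Nfatc1 (-0.0009, adjusted p 0.996) did not pass. None of the 6 was at 0 in any library. Nrg1 was low, at 0.227 to 1.236 CPM in HF-named and 1.265 to 2.637 CPM in con-named libraries. Its lowest value, in HF-5, was near the 3-count floor of that library (0.17 CPM). Their summed level was 118.1 to 153.3 CPM in HF-named and 175.3 to 218.5 CPM in con-named libraries, without overlap (ratio of means 0.659, exact permutation p 0.00216, the smallest these groups allow, adjusted 0.00722). Vwf made the largest part of this difference (45.3 CPM on average in HF-named and 93.5 CPM in con-named libraries). The mean log2 CPM over the 6 markers, which weighs them equally, differed by -0.80 (exact permutation p 0.00216, adjusted 0.0108). Within the groups, Npr3 and the endocardial sum gave r of 0.638 in HF-named (exact permutation p 0.174, rho 0.429 with p 0.419) and 0.452 in con-named libraries (exact permutation p 0.353, rho 0.486 with p 0.356). Both turned negative without the 2 libraries farthest from the median of Npr3 (-0.822 and -0.594), and no r over all 12 is given because the groups lie apart. In bulk RNA, fewer cells of a type and less RNA per cell cannot be told apart, and the part of endocardial cells in the Npr3 result was not tested.

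Npr1, the ANP and BNP receptor at chr3:90450591-90465866 on the minus strand, was 20.1 to 25.1 CPM in HF-named libraries (median 22.8) and 24.0 to 32.2 CPM in con-named libraries (median 25.3). HF-4, HF-5 and HF-6 lay below every con-named library, and HF-1, HF-2 and HF-3 inside their range. The means were 22.7 ± 2.28 CPM in HF-named and 26.8 ± 3.32 CPM in con-named libraries (SD, n = 6 each). The log2 fold change was -0.25 (SE 0.08, 95% interval -0.43 to -0.07) with an adjusted p of 0.0613. Npr1 crossed the threshold in DESeq2 (-0.25, adjusted p 0.0439), under scaling by library totals (-0.36, 0.0259), without con-1 (0.0495) and without HF-3 (0.0442).

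Npr2, the CNP receptor at chr4:43631935-43651244 on the plus strand, was the steadiest member, at 74.4 to 83.2 CPM in HF-named libraries (median 81.0) and 74.1 to 89.2 CPM in con-named libraries (median 80.7). All HF-named values lay inside the con-named range. Npr2 averaged 80.2 ± 3.19 CPM in HF-named and 81.6 ± 5.49 CPM in con-named libraries (SD, n = 6 each). The log2 fold change was -0.03 (SE 0.05, 95% interval -0.13 to 0.08, adjusted p 0.773). Under scaling by library totals it was -0.14 (adjusted p 0.0556). The ratio of Npr1 to Npr3 was 1.07 to 2.1 in HF-named libraries (median 1.43) and 0.867 to 1.46 in con-named libraries (median 0.952), with 3 HF-named libraries above all con-named ones.

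**Figure D4:**
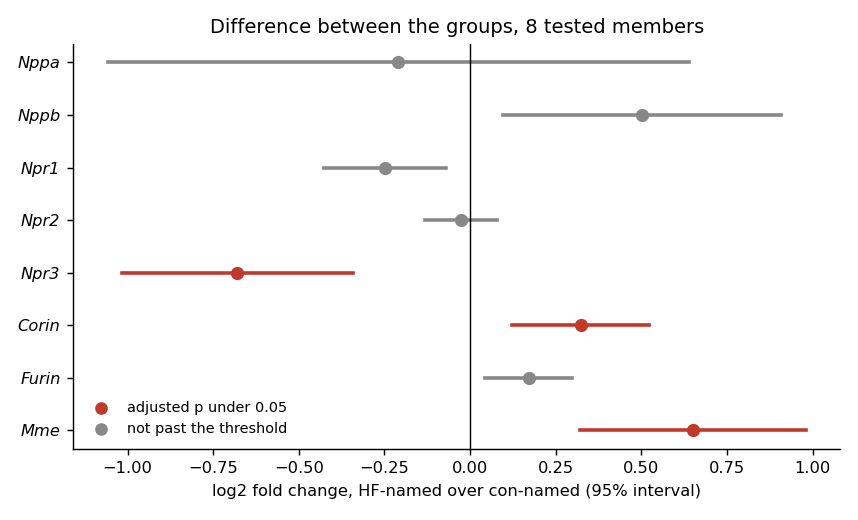
Log2 fold change of the 8 tested members, HF-named over con-named, with 95% intervals, in the edgeR fit of 12 libraries. Npr3 (-0.68) lies below 0 and Corin (0.32) and Mme (0.65) above it past an adjusted p of 0.05, and Nppa has the widest interval (-1.06 to 0.64).

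Of the proteases that mature the peptides, Corin, at chr5:72300025-72504473 on the minus strand, was higher in HF-named libraries. It ranged from 209.3 to 294.1 CPM in HF-named libraries (median 233.7) and from 164.3 to 219.6 CPM in con-named libraries (median 205.6). All HF-named libraries except HF-3 (209.3 CPM) lay above every con-named one, and HF-4 and HF-5 were the highest (291.1 and 294.1 CPM). Corin averaged 247.4 ± 36.2 CPM in HF-named and 197.9 ± 23.7 CPM in con-named libraries (SD, n = 6 each), a fold of 1.25 (log2 fold change 0.32, SE 0.09, 95% interval 0.12 to 0.52, adjusted p 0.0324). The call was lost under scaling by library totals (0.21, adjusted p 0.0571) and without con-2 (0.28, 0.0676), con-5 (0.26, 0.0755), HF-4 (0.27, 0.0802) or HF-5 (0.26, 0.082).

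Furin, at chr7:80388585-80405436 on the minus strand, encodes the convertase that cuts pro-BNP and many other precursors. It was 78.9 to 95.7 CPM in HF-named libraries (median 90.1) and 70.8 to 85.5 CPM in con-named libraries (median 79.6). HF-2, HF-4, HF-5 and HF-6 lay above every con-named library. The means were 89.0 ± 6.54 CPM in HF-named and 79.0 ± 6.01 CPM in con-named libraries (SD, n = 6 each). The log2 fold change was 0.17 (SE 0.06, 95% interval 0.04 to 0.30) with an adjusted p of 0.0677. Without HF-3 it passed (0.20, adjusted p 0.0238), and under scaling by library totals the log2 fold change was 0.06 (adjusted p 0.379). Corin and Furin varied together among the HF-named libraries (r 0.904, exact permutation p 0.0194, rho 0.943 with exact permutation p 0.0167, and r 0.995 without the 2 libraries farthest from the median of Corin). In con-named libraries r was 0.865 (exact permutation p 0.0319) and rho 0.6 (exact permutation p 0.242), and r was 0.141 without the 2 farthest libraries. The narrower range of Corin without them tends to lower r in itself, so whether that relation rests on them cannot be told. Among HF-named libraries Corin and Furin were highest in HF-5 and HF-4 (TMM factors 0.904 and 0.940) and lowest in HF-3 (1.017). The part of the scaling in their relation was not tested. In the same libraries Npr2 had smaller exact permutation p-values with Mme (r 0.95, p 0.0111) and with Furin (r 0.889, p 0.0167). Of the 28 relations between members in each group, none passed adjustment (lowest adjusted p 0.165 in HF-named and 0.292 in con-named libraries).

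Mme, at chr3:63241537-63386030 on the plus strand, was higher in HF-named libraries from a low level. It ranged from 4.86 to 10.01 CPM in HF-named libraries (median 8.99) and from 3.74 to 6.14 CPM in con-named libraries (median 5.78). HF-3, at 4.86 CPM, lay inside the con-named range, and the other 5 HF-named libraries (8.51 to 10.01 CPM) lay above all of it. These values rest on 73 to 211 reads per library in HF-named and 71 to 118 in con-named libraries. Mme averaged 8.47 ± 1.86 CPM in HF-named and 5.42 ± 0.908 CPM in con-named libraries (SD, n = 6 each), a fold of 1.57 (log2 fold change 0.65, SE 0.16, 95% interval 0.32 to 0.98, adjusted p 0.0131). The call was kept in all 12 fits that left out 1 library (0.55 to 0.77).

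The counts of calls in the lists that follow are to be read beside the 13.3% of all tested genes called, 8.28% higher and 5.05% lower. The share of all tested genes whose groups do not overlap is not given, so non-overlap of single genes is a description. Of 10 other peptidases, convertases and ligands 8 were tested, none was called higher and 3 were lower, with a median log2 fold change of -0.20 against -0.01 over all tested genes. Dpp4, a dipeptidyl peptidase that trims BNP, fell to 2.45 ± 0.190 CPM in HF-named, against 3.79 ± 0.409 CPM in con-named libraries (log2 fold change -0.63, adjusted p 0.00311). Ece1, endothelin-converting enzyme, fell to 79.1 ± 6.54 CPM in HF-named, against 96.6 ± 6.96 CPM in con-named libraries (-0.29, 0.00655). All 6 HF-named libraries were below all con-named ones for both genes. Pcsk6, a convertase known in mice to activate corin, was 45.3 ± 3.17 CPM in HF-named and 52.6 ± 5.13 CPM in con-named libraries (-0.21, 0.0443), and 8 of the 12 single-library omissions, and RLE size factors, ended its call. Ide, the insulin-degrading enzyme that also cuts ANP, had a log2 fold change of 0.16 (adjusted p 0.101).

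Downstream of the receptors, genes of cyclic GMP synthesis and breakdown showed 2 calls higher and 1 lower of 12 tested (median log2 fold change 0.08), and the balance turned to 1 higher and 3 lower under scaling by library totals, where Pde3b was lost and Pde1b and Pde9a, both lower, were gained. Pde3a, a cyclic GMP-inhibited phosphodiesterase, rose to 146.1 ± 17.9 CPM in HF-named, against 116.3 ± 9.80 CPM in con-named libraries (log2 fold change 0.33, adjusted p 0.0117). Its relative Pde3b (0.46, 0.0389) lost its call in 10 of the 12 fits without 1 library. Pde1c, a calcium-dependent phosphodiesterase, was lower (-0.35, 0.0343) and lost its call in 5 of them. The soluble guanylyl cyclase subunits Gucy1a1 (0.12, 0.178) and Gucy1b1 (0.14, 0.102), which answer nitric oxide, did not pass, nor did Pde5a (0.06, 0.757). Pde9a, a phosphodiesterase of high affinity for cyclic GMP, just missed the threshold (-0.42, 0.0535), and passed with library totals, the 1 CPM filter, limma-voom and DESeq2.

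Of 8 tested cyclic GMP effectors and substrates, 3 were higher and 2 lower (median log2 fold change 0.16), against 2 higher and 3 lower under scaling by library totals, where Ppp1r12a was lost and Pln (phospholamban, -0.17) gained. Prkg1, the cyclic GMP-dependent protein kinase, rose to 9.24 ± 1.54 CPM in HF-named, against 5.14 ± 0.156 CPM in con-named libraries (log2 fold change 0.84, adjusted p 0.000536). Cnga3, a subunit of cyclic nucleotide-gated channels, rose to 6.27 ± 0.718 CPM in HF-named, against 3.48 ± 0.531 CPM in con-named libraries (0.85, 0.000668). All 6 HF-named libraries lay above all con-named ones for both genes, and both calls were kept in all 12 fits without 1 library. Ppp1r12a, the myosin phosphatase targeting subunit, was also higher (0.19, 0.0195). Rgs2, a regulator of G-protein signalling and substrate of the kinase, was lower (-0.69, 0.0365), as was Vasp, an actin regulator and kinase substrate (-0.30, 0.0443). Rgs2 lost its call in 7 and Vasp in 9 of the 12 fits without 1 library.

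Of 18 transcription factors and cofactors known at natriuretic peptide promoters, 5 were higher and none lower (median log2 fold change 0.15). Under scaling by library totals 2 were higher, Hdac4 and Tead1, and 1 lower, Hdac5 (-0.16). Single-library omissions gave 3 to 7 higher and none lower. Hdac4, a histone deacetylase that represses hypertrophic genes, rose to 45.3 ± 4.30 CPM in HF-named, against 32.7 ± 3.28 CPM in con-named libraries (log2 fold change 0.47, adjusted p 0.00123). Tbx20, a T-box factor, was higher (0.26, 0.00527), as was Tead1, a factor of the CATTCC motif matched by letters in the Nppb promoter (0.34, 0.00697). Binding at that match was not tested. Myocd, the coactivator of serum response factor (0.37, 0.0272), and Srf itself (0.18, 0.0389) lost their calls in 6 and 10 of the 12 fits without 1 library. Gata4 (0.10, 0.247), Nkx2-5 (0.01, 0.932) and Tbx5 (0.11, 0.467), factors of the zinc-finger, homeodomain and T-box motifs above, did not pass.

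**Figure D5:**
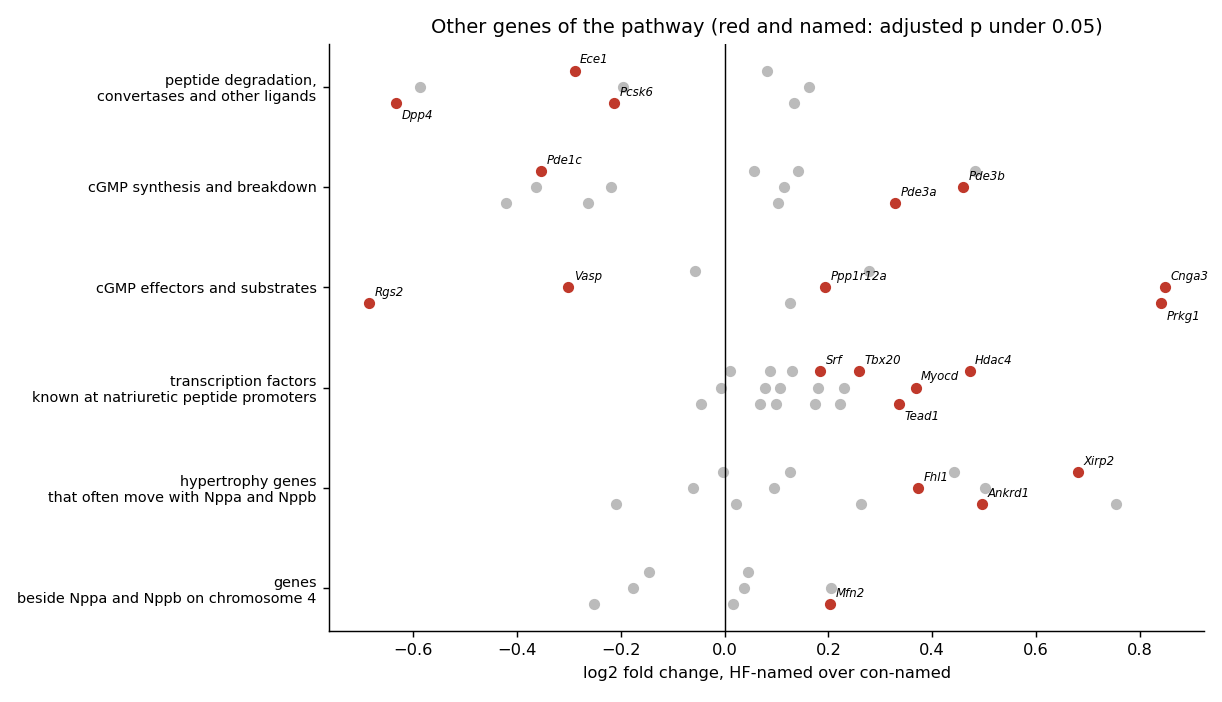
Log2 fold change, HF-named over con-named, of each tested gene in 6 lists around the natriuretic peptides, with genes past an adjusted p of 0.05 in red and named. Prkg1 (0.84) and Cnga3 (0.85) lie farthest to the right, and Rgs2 (-0.69) and Dpp4 (-0.63) farthest to the left among the called genes.

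Hypertrophy genes that often accompany Nppa and Nppb, a list that holds both, gave 3 calls higher and none lower of 13 tested (median log2 fold change 0.26). Xirp2, a protein of intercalated discs, rose to 777.4 ± 127.2 CPM in HF-named, against 484.9 ± 40.7 CPM in con-named libraries (log2 fold change 0.68, adjusted p 0.000668). Fhl1, a LIM-domain protein of the sarcomere (0.37, 0.00127), and Ankrd1, a stretch-responsive ankyrin-repeat protein (0.50, 0.00363), were also higher, and for all 3 genes the groups did not overlap. Myh7, the fetal-type myosin heavy chain, did not pass (-0.004, 0.986), nor did skeletal actin Acta1 (0.44, 0.259). Of 8 tested genes beside the Nppa and Nppb locus, 1 was higher and none lower (median 0.03), about the share over all tested genes. This was Mfn2, a mitochondrial fusion protein (0.20, 0.0474), whose call ended in 9 of the 12 single-library omissions. It also ended with RLE size factors, library totals, no filter, the 1 CPM filter and a block for replicate number. Under scaling by library totals the direction turned, with none higher and 3 lower (Miip, -0.37, Fbxo44, -0.30, and Fbxo6, -0.26).

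Genes whose variation among the 12 libraries was most like that of a member, after the group means were removed, were taken from 13694 genes of at least 1 CPM on average, as a description. For Nppa they were Prrt4 (r 0.946), Ceacam1 (0.939), Col8a1 (0.929), Emp1 (0.924) and Thbd (0.92). In the same order, r with Nppa was 0.987, 0.938, 0.977, 0.952 and 0.946 within HF-named libraries. Within con-named libraries it was 0.668, 0.96, 0.544, 0.889 and 0.896. For Nppb the genes were Aif1l (0.934), Olfr1396 (0.924), Dsel (0.919), Elf4 (0.917) and Pcdh1 (0.914). For Npr3 they were Cytl1 (0.913), Ggct (0.913), Cfap20 (0.91), the pseudogene Atp5l2-ps (0.898) and Hypk (0.878). Of these 15 genes only Cytl1, which encodes a small secreted protein, was itself called (log2 fold change -0.84, adjusted p 0.00512).

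Markers of other cells moved between the groups as follows, and their part in the members' results was not tested beyond the values given. Markers of ventricular cardiomyocytes, cells known to make Nppb and Corin, summed to 53434 to 60726 CPM in HF-named and 52340 to 59887 CPM in con-named libraries (exact permutation p 0.673, adjusted 0.673). Myh6 made the largest part of this sum (32830 CPM on average in HF-named and 30090 CPM in con-named libraries). With the mean log2 CPM over the list in place of the sum, the difference was -0.096 (exact permutation p 0.026, adjusted 0.0519). Of the 7 markers 1 was called higher (Actn2, 0.21, not called in 9 of 12 single-library omissions) and 4 lower (Tnnt2, -0.23, not called in 10, Tnni3, Myl2 and Myl3), while Myh6 did not pass (0.13, adjusted p 0.243). With no filter beyond 1 count, and with a block for replicate number, none of the 7 was called. Under scaling by library totals 5 were lower and none higher. Conduction-system markers, cells known to hold Nppa in mouse ventricle, summed to 43.3 to 53.3 CPM in HF-named and 60.2 to 76.3 CPM in con-named libraries (adjusted exact permutation p 0.00722). Of 6 tested 3 were lower (Irx3, -0.50, Kcne1, and Gja5, not called in 6 omissions) and Hcn4 was higher (0.36), a call lost under scaling by library totals. Fibroblast markers summed to 962.0 to 1207 CPM in HF-named and 1230 to 1514 CPM in con-named libraries (adjusted exact permutation p 0.00722), with 4 of 7 called lower (Gsn, -0.29, Dcn, -0.35, Dpt, and Tcf21, not called in 8 omissions). Macrophage markers summed to 148.6 to 205.9 CPM in HF-named and 177.0 to 249.8 CPM in con-named libraries (adjusted exact permutation p 0.0303), with 3 of 6 lower, a count that went down to 1 among the omissions (Lyz2, -0.39, called in all, Csf1r, -0.35, not called in 8, and Mrc1, not called in 9). Mural markers summed to 1318 to 1501 CPM in HF-named and 1184 to 1346 CPM in con-named libraries (adjusted exact permutation p 0.0216), with none of 7 called (Rgs5, 0.20, adjusted p 0.0504, and Abcc9, 0.11, 0.414). Capillary endothelium (963.8 to 1484 CPM in HF-named and 1209 to 1546 CPM in con-named libraries, 1 of 7 lower, Kdr, not called in 9 omissions, with Fabp4 at -0.19 and Cdh5 at -0.34 not called), blood (315.5 to 613.1 CPM in HF-named and 281.4 to 481.0 CPM in con-named libraries, 1 of 6 higher, Hba-a2, not called in 8 omissions, with Hbb-bs at 0.34 and Hba-a1 at 0.33 not called) and epicardium (3.46 to 7.84 CPM in HF-named and 3.74 to 8.47 CPM in con-named libraries, 1 tested, Wt1, not called) had sums that did not pass. All 7 capillary markers had negative log2 fold changes, and their sum gave an exact permutation p of 0.0433 (adjusted 0.0722). Under scaling by library totals 4 of the 7 were called lower. Single-library omissions gave 0 to 5 lower, the 5 without HF-3.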

How the data were processed

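Read counts per gene, not normalized, were deposited by the authors for 12 libraries, with FPKM values (used only to compare levels of different genes) and a table of the authors' own comparison. That deposited table holds, per gene, a signal for each group (the mean of scaled counts), a log2 fold change and a p-value. The submitters' processing notes name cutadapt 1.15, HISAT2 2.0.5, HTSeq 0.9.1 and the build mm10, and do not tie tools to steps. Annotation release and strand setting: not given in the sources used here. No strand-marking step is described in the labels' protocol. Reads shared with antisense genes are therefore uncertain, and besides Nppa such overlaps cover 11.7% of the exon bases of Npr1, 5.7% of Npr2, 3.42% of Npr3, 2.72% of Corin and 1.29% of Furin.

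Counts were filtered (filterByExpr), scaled by TMM and tested with edgeR 4.0.16 (quasi-likelihood, R 4.3.3), HF-named over con-named, two-sided, adjusted by Benjamini-Hochberg over all tested genes at 0.05. SE is the absolute log2 fold change over the square root of F. CPM are on TMM-scaled library sizes, as mean ± SD. Marker sums were tested by exact permutation over 924 splits (scipy 1.17.1), two-sided. Positions and exon lengths come from GENCODE M21. The steps were tested on simulated data. Alternatives were RLE size factors, library totals, no filter beyond 1 count, a minimum of 1 CPM in 6 libraries, limma-voom (limma 3.58.1), DESeq2 1.42.0, a block for replicate number, and leaving out each library in turn.

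The members and gene lists were chosen with earlier results of these data known. Genes named are all members, all called genes of a pathway list up to 5 (otherwise the 1 of smallest p), the 2 most abundant tested genes of each marker list (for the epicardium only Wt1 was tested) and the 5 most like Nppa, Nppb and Npr3. Others were chosen after their values were seen. Counting error alone underlies the floor of 3 counts.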

Additional observations from a re-analysis of the deposited data

Results flagged for a closer look

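In 2 groups of 6 libraries, 1 value of a tested member stood farther from the others than Dixon's 95% critical value for 6 samples, a rule that by chance picks about 1 in 20 groups. Mme in HF-3 was 4.86 CPM, where the other 5 HF-named libraries had 8.51 to 10.01 CPM. Nppb in con-2 was 188.4 CPM, where the other 5 con-named libraries had 92.4 to 125.6 CPM.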

How the results depend on the processing

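Npr3 and Mme kept their direction and their call under all 7 other settings and in all 12 fits that left out 1 library. Scaling by library totals moved the median over all genes to -0.13 on the log2 scale (-0.01 with TMM), called 3065 genes in place of 2016, and put 15.8% of the calls on the higher side in place of 62.1%. It also called Npr1 (-0.36) and lost Corin (0.21). DESeq2 called Npr1 as well (-0.25). Without 1 library the genes called ranged from 1355 to 2550 and the members called from 2 to 5. The log2 fold changes then ranged from -0.71 to -0.02 for Nppa, from 0.42 to 0.65 for Nppb, from -0.28 to -0.20 for Npr1, from 0.26 to 0.37 for Corin, from 0.13 to 0.20 for Furin and from -0.0519 to 0.0008 for Npr2, whose sign turned without con-1 (0.0008, adjusted p 0.995). With the mean log2 CPM over a list in place of the sum, the epicardial markers turned sign (0.00691, adjusted p 0.985), and the mural (0.11, 0.17) and macrophage markers (-0.28, 0.0519) no longer passed. The cause of these changes was not tested. Libraries of the same number did not deviate together (correlations -0.161 to 0.09, and 1 of 6 numbers had its own partner as the closest). The numbers therefore showed no sign of a pairing, but a pairing of small effect would not be seen this way. With the replicate number as a block, 1131 genes were called, Nppa stood at -0.57 (adjusted p 0.419), and Corin (0.32, adjusted p 0.0684) did not pass. Depth limits Nppc, at 0 to 2 counts per library, most.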
